A study of Mus musculus with 8 samples.

Results

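The DOCK proteins are guanine nucleotide exchange factors, and their transcripts were examined here in microglia, the resident macrophages of the brain, sorted by whether they carried plasma protein. The 9 members were Dock1, Dock2, Dock3, Dock4, Dock5, Dock8, Dock9, Dock10 and Dock11, taken by symbol from the 35583 genes of the deposited count table. They were selected on their measured levels in plasma-positive against plasma-negative cells, with that contrast in view. Their values in that contrast are therefore given as a description. Where members are counted among the genes called in the fit across all genes, the count is no test of the list. Dock6, a further gene of the family that was not on the list, is described separately.

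The mice were young and wild-type, had been injected 20 hours earlier with plasma protein that carried a dye, and gave microglia from the hypothalamus. Microglia with the plasma label (plasma-positive) and without it (plasma-negative) gave 4 libraries each, numbered 1 to 4, so both groups share the injection, the genotype and the region. The labels do not give the age in weeks, the sorting gates, or whether libraries came from separate animals or pools. P-values here thus measure the spread between these libraries, which may be technical. Total counts ranged from 2963094 in plasma-negative replicate 4 to 21422738 in plasma-negative replicate 1. Every library but the smallest held at least 9421708 counts. The defining microglial markers were abundant in every library, with a summed level of 63359 to 75325 CPM (counts scaled to library size) without plasma and 69869 to 75346 CPM with it, and none of the 10 was near 0.

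DOCK proteins switch on small GTPases such as Rac and Cdc42 by exchanging bound GDP for GTP through a DHR2 domain, which is unrelated to the catalytic domain of the more common Dbl exchange factors. Subfamilies A and B, which include Dock1, Dock2, Dock5, Dock3 and Dock4, act on Rac and usually work with an ELMO protein. Subfamily D, with Dock9, Dock10 and Dock11, acts mainly on Cdc42, and Dock8 of subfamily C acts on Cdc42 as well. In phagocytes this switch drives the branched actin of migration and engulfment. Dock1 is known from the uptake of dying cells, while Dock2 and Dock8 are best known from blood cells, where loss of either causes immunodeficiency.

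The promoters of the 4 most abundant members are printed first, because these transcripts carried most of the family's signal and all had lower mean levels in plasma-positive cells. Each window runs from 250 bases before to 50 after the start (build GRCm38.p6), is written 5′ to 3′ on the gene's strand, and is taken at a RefSeq start within 101 bases of the gene's start in the deposited table. Capitals mark GAGGAA, the core of sites for the macrophage factor PU.1, and GGGCGG, the box of the general factor Sp1, searched on both strands, so that TTCCTC and CCGCCC are the same motifs read on the other strand. The windows lie at chr11:34783856-34784155 (minus strand) for Dock2, chr12:40445803-40446102 (plus) for Dock4, chr19:24999279-24999578 (plus) for Dock8 and chr1:80758504-80758803 (minus) for Dock10.
Dock2: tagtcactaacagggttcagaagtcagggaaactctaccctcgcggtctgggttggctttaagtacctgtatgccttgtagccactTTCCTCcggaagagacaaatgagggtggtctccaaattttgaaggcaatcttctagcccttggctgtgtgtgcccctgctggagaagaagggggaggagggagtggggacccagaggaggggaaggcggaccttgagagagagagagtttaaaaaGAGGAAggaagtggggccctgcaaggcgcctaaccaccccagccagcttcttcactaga
Dock4: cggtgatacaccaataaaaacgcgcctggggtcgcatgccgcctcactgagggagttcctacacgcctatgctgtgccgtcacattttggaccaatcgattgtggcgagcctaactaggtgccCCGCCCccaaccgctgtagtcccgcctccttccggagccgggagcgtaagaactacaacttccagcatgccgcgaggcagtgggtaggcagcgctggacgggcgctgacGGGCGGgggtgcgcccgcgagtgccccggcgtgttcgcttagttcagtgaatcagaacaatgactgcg
Dock8: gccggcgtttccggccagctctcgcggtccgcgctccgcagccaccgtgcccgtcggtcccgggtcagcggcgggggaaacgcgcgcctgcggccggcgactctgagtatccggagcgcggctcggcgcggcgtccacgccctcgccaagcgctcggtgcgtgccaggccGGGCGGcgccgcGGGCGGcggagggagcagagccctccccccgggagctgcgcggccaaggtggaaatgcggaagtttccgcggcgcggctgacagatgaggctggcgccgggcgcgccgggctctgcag
Dock10: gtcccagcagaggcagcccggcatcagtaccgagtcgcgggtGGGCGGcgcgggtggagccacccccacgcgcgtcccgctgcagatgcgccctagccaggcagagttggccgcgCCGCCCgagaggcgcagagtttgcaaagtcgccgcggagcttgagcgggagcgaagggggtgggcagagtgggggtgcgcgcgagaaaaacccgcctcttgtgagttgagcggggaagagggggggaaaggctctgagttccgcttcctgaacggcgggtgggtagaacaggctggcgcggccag
The Dock2 window differed from the other three in base composition. It held 5 CpG dinucleotides and 54.3% GC, 2 GAGGAA and no GGGCGG. Dock4, Dock8 and Dock10 held 29, 52 and 32 CpG dinucleotides, 2 GGGCGG each and no GAGGAA. Over all 32851 mouse promoter windows of the same length the median was 7 CpG and 52.7% GC, 28.3% held GAGGAA and 35.7% held GGGCGG. RefSeq windows were matched for 8 of the 9 members. The windows at the starts of Dock1, Dock3, Dock9 and Dock11 held 25 to 41 CpG and 3 to 5 GGGCGG, and the windows of Dock1 and Dock3 also held 1 GAGGAA each. The AP-1 motif TGANTCA occurred once, in Dock4 (7.81% of all windows held it), and the interferon-stimulated response element in none of them (3.44% of all windows). A match to these letters is a description of the window and not a site shown to be bound.

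Levels of different genes were compared per exon length, as the authors' RPKM (reads per kilobase of exon, scaled to the reads of the library) over all 8 libraries. Microglia carried 4 DOCK transcripts at high levels, namely Dock8, Dock2, Dock10 and Dock4, followed at lower levels by Dock11, Dock1 and Dock9, while Dock3 and Dock5 were near 0. Dock8 had a mean of 14.9 ± 3.53 RPKM (SD, n = 8) and ranked above 87.4% of the 18719 genes with counts. Dock2 had 13.3 ± 2.55 RPKM (SD, n = 8). Dock10 and Dock4 were nearly equal at 9.41 ± 2.13 and 9.49 ± 2.84 RPKM (SD, n = 8). These 4 genes together made up 83.3% to 89.8% of the summed DOCK RPKM in each library. They averaged 86.8 ± 2.51% of it where the cells lacked plasma and 86.1 ± 2.54% where they carried it (SD, n = 4 each). Dock11 had 3.51 ± 0.641, Dock1 2.49 ± 1.06 and Dock9 1.25 ± 0.589 RPKM (SD, n = 8). The medians of Dock3 and Dock5 were 0.017 and 0 RPKM.

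Neighbours in this order were compared within libraries by exact two-sided sign-flip permutation tests, adjusted over the 8 neighbouring pairs. The order itself was read from the same libraries, and the smallest p that 8 libraries allow is 0.0078125. Dock2 exceeded Dock10 in 8 of 8 libraries (mean log2 difference 0.51, SD 0.27, n = 8, exact permutation adjusted p = 0.0208). Dock4 exceeded Dock11 by 1.39 ± 0.26 on the log2 scale in 8 of 8 libraries (exact permutation adjusted p = 0.0208), which is the step from the abundant to the intermediate members. Dock1 exceeded Dock9 by 1.10 ± 0.96 in 7 of 8 libraries (exact permutation adjusted p = 0.0313). Dock9 lay above Dock3 in 8 of 8 libraries (exact permutation adjusted p = 0.0208). No size is given for that step, since Dock3 had 0 counts in 3 libraries and the size would rest on the 0.01 added before taking logs. The other 4 neighbouring pairs were not separated beyond their spread. Dock8 and Dock2 differed by 0.15 ± 0.35 (exact permutation adjusted p = 0.304) and Dock10 and Dock4 by 0.02 ± 0.28 (exact permutation adjusted p = 0.938). Dock11 lay above Dock1 in 7 of 8 libraries, by 0.60 ± 0.65, at the threshold itself (exact permutation adjusted p = 0.05). Dock3 and Dock5 gave an exact permutation adjusted p of 0.0833.

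**Figure D1:**
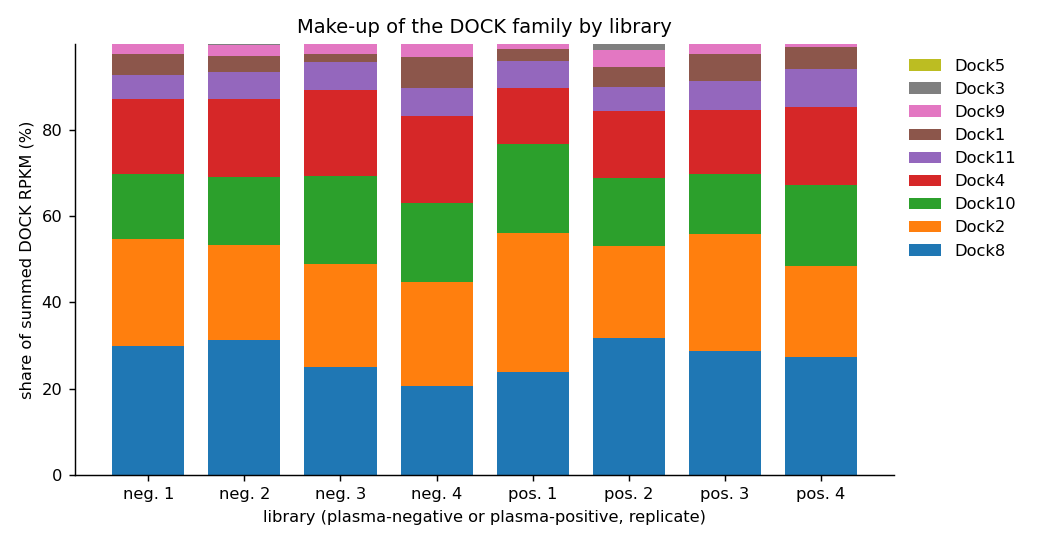
Share of the summed RPKM of the 9 DOCK members (vertical axis, percent) in each of the 8 libraries (horizontal axis), stacked by gene with the most abundant at the bottom. Dock8, Dock2, Dock10 and Dock4 fill 83.3% to 89.8% of every bar, and the Dock4 segment averages 18.9% over the plasma-negative bars and 15.4% over the plasma-positive bars.

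Between the groups, the 7 members with enough counts to enter the fit across all genes had lower mean levels in plasma-positive microglia, by 0.48 to 0.93 on the log2 scale. Their summed level with that of Dock3 and Dock5 was 1142 to 1329 CPM in plasma-negative libraries and 764 to 826 CPM in plasma-positive libraries, so the groups did not overlap. The means were 1238 ± 85.7 and 785 ± 28.3 CPM (SD, n = 4 each), a log2 ratio of -0.66. In RPKM the same sums gave a log2 ratio of -0.48. In sorted bulk RNA, fewer cells of a kind and less RNA of a gene per cell cannot be told apart. The library sizes behind CPM carry TMM factors, which were 1.005 to 1.057 in plasma-negative and 0.952 to 0.979 in plasma-positive libraries. Log2 fold changes come from edgeR's fit over 13277 genes. The median fold change of the 7 members was -0.55, beside 0.0058 over all genes tested. The members were picked with this contrast known, so these counts and medians describe the list and support nothing further.

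Dock4, a Rac exchange factor of subfamily B known from cell migration and neurite growth, had one of the 2 largest differences among the members. It lies on chromosome 12 from 40445952 to 40846874 (mm10, plus strand) and has 22923 bases of merged exon, the longest of the family. In plasma-negative replicates 1 to 4 its level was 327, 391, 406 and 384 CPM. In plasma-positive replicates 1 to 4 it was 166, 200, 211 and 224 CPM. Every plasma-positive library lay below every plasma-negative one, and the nearest libraries of the groups were plasma-positive replicate 4 and plasma-negative replicate 1. The means were 377 ± 34.8 and 200 ± 24.7 CPM (SD, n = 4 each), and the log2 fold change was -0.91 (SE 0.12). Of the summed DOCK RPKM, Dock4 took 18.9 ± 1.53% in the first group and 15.4 ± 2.08% in the second (SD, n = 4 each), with overlap in 1 library, plasma-positive replicate 4 at 18.1%. Dock3, the other member of subfamily B and known as a neuronal gene, was near 0 in most libraries. It gave 0, 38, 1 and 0 counts in plasma-negative and 8, 228, 11 and 0 counts in plasma-positive replicates 1 to 4. The 228 counts, or 11.6 CPM, stood in plasma-positive replicate 2, where the summed neuronal markers were also highest at 307 CPM against 2.69 to 71.9 CPM elsewhere. Plasma-negative replicate 2, with 38 Dock3 counts, had a neuronal marker sum of 10.3 CPM, and the part of neuronal RNA in these values was not tested. Dock3 lies on chromosome 9 (106892825 to 107231909, minus strand), and 8.10% of its exon bases overlap other genes.

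The Rac exchange factors of subfamily A were led by Dock2, which in blood cells links chemokine receptors to Rac. Dock2 is on chromosome 11 (34226815 to 34783892, minus strand). Its level was 236, 239, 238 and 227 CPM in plasma-negative replicates 1 to 4. It was 206, 138, 190 and 130 CPM in plasma-positive replicates 1 to 4. The groups did not overlap, and the libraries of the plasma-negative group were nearly identical while those of the plasma-positive group spread widely, with coefficients of variation of 2.28% and 22.6%. The means were 235 ± 5.36 and 166 ± 37.5 CPM (SD, n = 4 each), a log2 fold change of -0.50 (SE 0.15). A short antisense gene, 4930403D09Rik, shares 460 bases (4.03%) of Dock2's exons and held 25 to 278 counts per library, and whether the counting used strand is not given in the sources used here. Dock1, the founding member of the family, acts with ELMO proteins in engulfment and lies on chromosome 7 (134670654 to 135173639, plus strand). Its level was 39.0, 33.0, 15.7 and 54.8 CPM in plasma-negative and 13.9, 25.1, 35.8 and 26.6 CPM in plasma-positive replicates 1 to 4. The groups overlapped, with plasma-negative replicate 3 below 3 of the 4 plasma-positive libraries and plasma-negative replicates 1 and 4 above all of them, and the log2 fold change was -0.48 (SE 0.40). It ranged from -0.72 to -0.20 when single libraries were left out. Dock5, a close relative of Dock1 on chromosome 14 (67752135 to 67933442, minus strand), had 5 counts in plasma-positive replicate 2 and none in the other 7 libraries. A count of 0 there allows up to 3 counts, which is 0.132 to 1.01 CPM in the plasma-negative libraries, so no direction can be read. That limit covers counting error only.

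Dock8, of subfamily C, activates Cdc42 and is needed for the movement of leukocytes through tight spaces. It lies on chromosome 19 (24999534 to 25202432, plus strand). Its level was 247, 298, 222 and 171 CPM in plasma-negative replicates 1 to 4. It was 134, 180, 177 and 149 CPM in plasma-positive replicates 1 to 4. The groups overlapped through plasma-negative replicate 4, the library with the fewest counts, which lay below 2 of the plasma-positive libraries. The means were 235 ± 53.1 and 160 ± 22.4 CPM (SD, n = 4 each), and the log2 fold change was -0.55 (SE 0.17).

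Among the Cdc42 exchange factors of subfamily D, Dock10 was the most abundant. Dock10 is on chromosome 1 (80501073 to 80758527, minus strand), with 18267 bases of merged exon. Its level was 227, 275, 327 and 273 CPM in plasma-negative and 210, 164, 155 and 186 CPM in plasma-positive replicates 1 to 4. The groups did not overlap in CPM, although plasma-negative replicate 1 and plasma-positive replicate 1 lay close together. In the authors' RPKM they did overlap, at 9.10 in plasma-negative replicate 1 and 9.20 in plasma-positive replicate 1. The means were 276 ± 40.8 and 179 ± 24.5 CPM (SD, n = 4 each), a log2 fold change of -0.63 (SE 0.14). Dock11, a Cdc42 exchange factor described in lymphocytes and encoded on chromosome X (35888832 to 36076562, plus strand), was less abundant. Its level was 41.7, 56.1, 52.7 and 49.8 CPM in plasma-negative and 32.2, 29.6, 37.3 and 43.3 CPM in plasma-positive replicates 1 to 4. Plasma-positive replicate 4 reached above plasma-negative replicate 1, and the other plasma-positive libraries lay below all plasma-negative ones. The log2 fold change was -0.49 (SE 0.22). Dock9, also known as zizimin 1 and located on chromosome 14 (121542046 to 121797837, minus strand), gave the most uneven values of the 7. Its level was 24.7, 32.9, 26.1 and 32.6 CPM in plasma-negative and 8.36, 28.8, 18.8 and 4.58 CPM in plasma-positive replicates 1 to 4. The plasma-negative libraries were tightly grouped, while plasma-positive replicate 2 lay among them and replicates 1 and 4 far below. The log2 fold change was -0.93 with an SE of 0.49, and it ran from -1.44 to -0.63 when single libraries were left out.

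**Figure D2:**
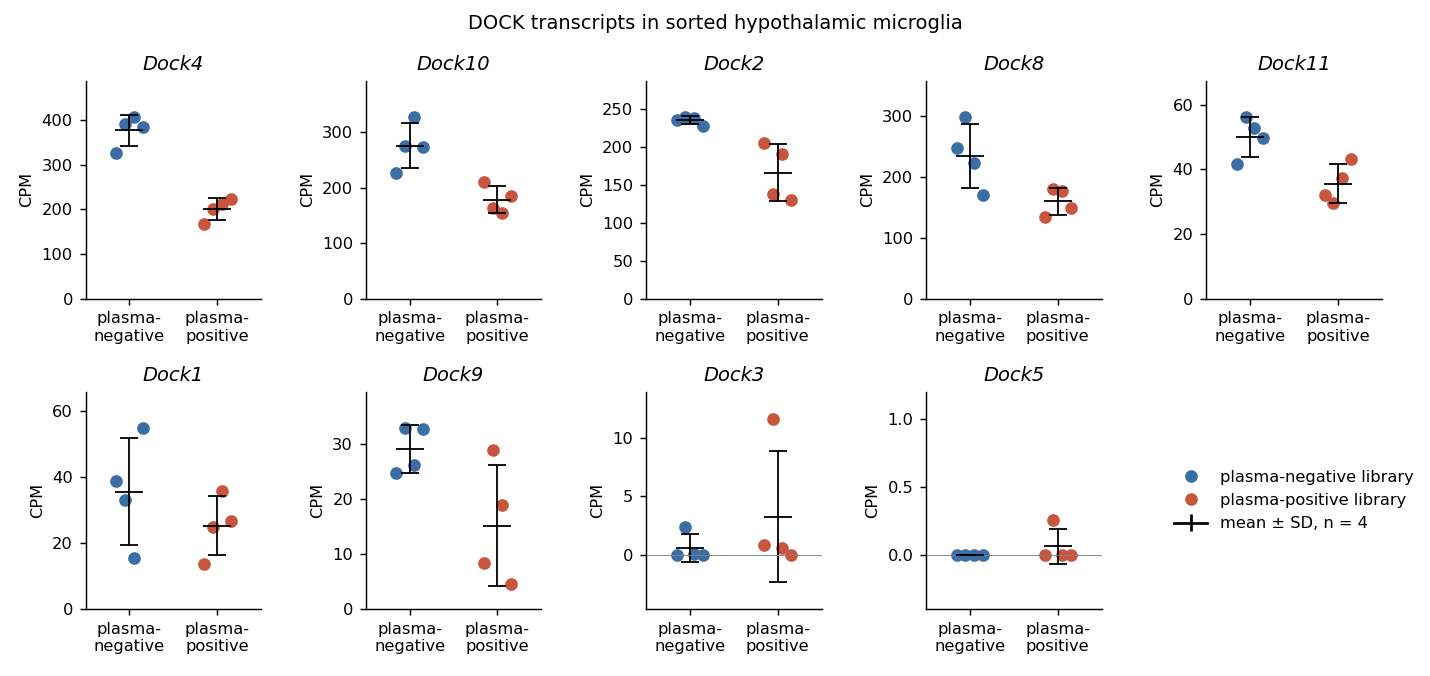
Level of each of the 9 DOCK members in CPM (vertical axis, own scale per gene) in the 4 plasma-negative and 4 plasma-positive libraries. Points are libraries and bars are mean ± SD (n = 4); the groups are apart for Dock4, Dock10 and Dock2 and overlap for the others, and Dock3 and Dock5 lie near 0.

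Counted over the list in CPM, 3 of the 7 members in the fit (Dock2, Dock4 and Dock10) had all plasma-positive libraries below all plasma-negative ones, which 4.59% of all tested genes did. By edgeR's quasi-likelihood test with Benjamini-Hochberg adjustment at 0.05, 1 of the 7, Dock4, was among the genes called lower, as were 0.565% of all tested genes. In either direction 1.41% of tested genes were called. Dock4 is among 154 genes at 32 CPM or more with at least 16000 bases of merged exon. Of these, 18 were called lower and 0 higher. The rule for choosing the members used this contrast, so nothing is read from these counts. All 7 fold changes stayed negative under the other scalings, filters, tests and left-out libraries that were run. Those fits reuse the libraries on which the members were picked, so the shared sign adds nothing to the selection. Summed by subfamily, A went from 271 to 192 CPM, B from 378 to 204 CPM and D from 355 to 229 CPM in the mean (n = 4 each), with SDs of at most 46.4 CPM. Once the group means were removed, the members did not vary together from library to library. The 21 pairwise correlations of their log2 deviations over the 8 libraries ran from -0.78 to 0.76 with a median of 0.03.

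DOCK transcripts are long, and fold changes in these libraries moved with transcript length. The 7 members in the fit have 9240 to 22923 bases of merged exon, against a median of 3976 over tested genes, and 10.4% of tested genes are as long as the shortest of them. At 32 CPM or more, genes with under 2000 bases of exon had a median log2 fold change of 0.29. That median was 0.18 from 2000 to 4000 bases, 0.02 from 4000 to 8000, -0.24 from 8000 to 16000 and -0.49 in the 154 genes above that. Of the 743 genes as long as the members and at 32 CPM or more, 77.4% had lower means in plasma-positive cells. Their median was -0.33, and 22.9% of them had all plasma-positive libraries below all plasma-negative ones. Dock4, Dock9 and Dock10, the longest expressed members, had the most negative fold changes.

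With the trend against exon length and GC content removed in each library, the 7 members kept negative fold changes of a smaller size. Their median was then -0.31, between -0.60 and -0.13, beside -0.06 over all genes tested and -0.0021 over the 743 genes of their length. The trend was fitted on genes at 32 CPM or more, which include those 743, so the fit itself set their median near 0. The members were picked on this contrast, so nothing is read from the gap between these medians. Dock4 went from -0.91 to -0.35 (SE 0.11), a change of more than 1.5 times. Dock10 went from -0.63 to -0.13 (SE 0.14), smaller than its error. Dock2 went from -0.50 to -0.23 (SE 0.16) and Dock8 from -0.55 to -0.35 (SE 0.16). Dock1, Dock9 and Dock11 had -0.31, -0.60 and -0.29, with SEs of 0.39, 0.49 and 0.22. On this scale edgeR called 67 genes and none of the 7 (2 at an unadjusted p under 0.05), and nothing is read from that count either. Whether the length trend arose in the cells or in the making of the libraries was not tested.

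**Figure D3:**
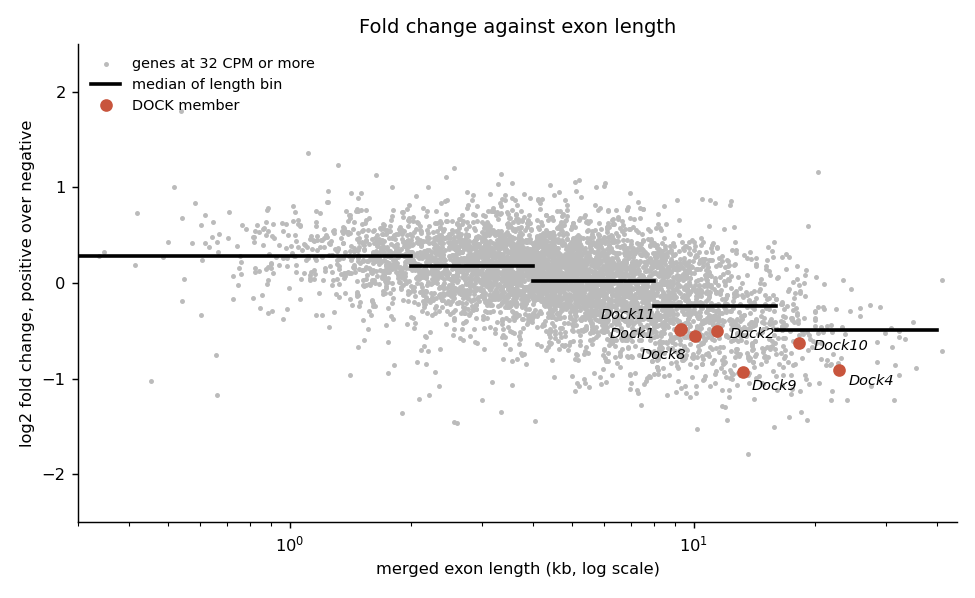
Log2 fold change, plasma-positive over plasma-negative (vertical axis), against merged exon length in kilobases (horizontal log axis) for 5174 genes at 32 CPM or more (2 lie outside the axes), with medians of 5 length bins as black lines and the 7 DOCK members in the fit in red. Dock1 and Dock9 are drawn although their means, 30.5 and 22.1 CPM, are under 32 CPM. The bin medians go from 0.29 for the shortest to -0.49 for the longest genes, and all members lie under the line of their bin.

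**Figure D4:**
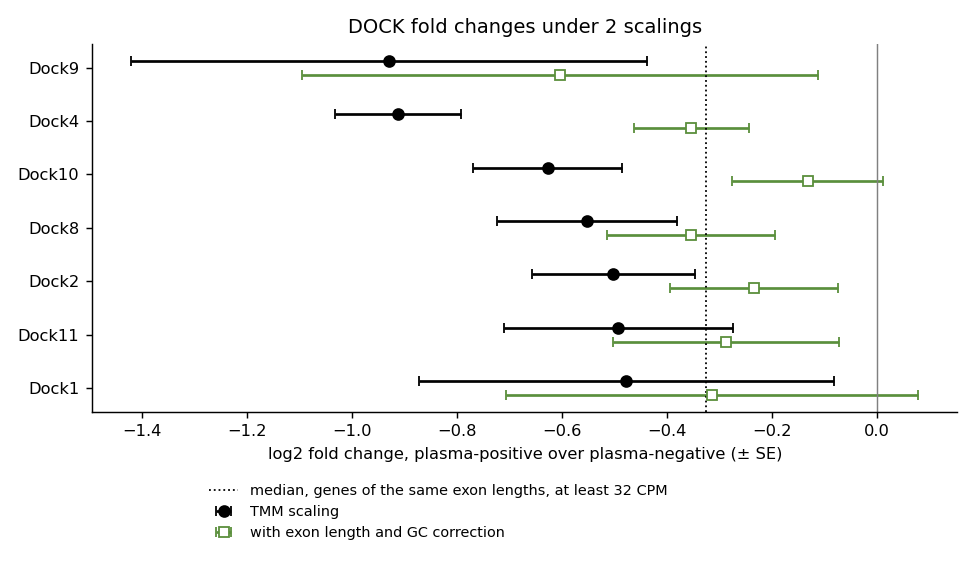
Log2 fold change ± SE (horizontal axis) of the 7 members in the fit with TMM scaling (filled circles) and after correction for exon length and GC content (open squares). The dotted line is the median of genes as long as the members at 32 CPM or more, -0.33; every corrected value lies to the right of its TMM value and left of 0.

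Dock6, which belongs to subfamily C with Dock8, was near 0 outside 1 library, with 10.5 CPM (238 counts) in plasma-negative replicate 1 and at most 2.64 CPM elsewhere. Its log2 fold change of -1.34 (SE 1.58) became 1.38 without that library. The gene was not called (edgeR adjusted p = 0.783).

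The rest of the pathway was described with 12 lists of 182 genes, of which 144 were tested. Of these, 5 were called higher, beside 0.844% of all tested genes, and 1 was called lower. Over all tested genes 13.8% had an unadjusted p under 0.05, and DESeq2 called 3.24% higher and 3.26% lower, and the count of each list reads against these shares. Medians with the length and GC correction are given beside the others, with -0.06 over all tested genes. Among the GTPases that DOCK proteins act on and their near relatives, all 6 tested genes of the Rac, Cdc42 and RhoG list had higher means there, with a median log2 fold change of 0.26. For 4 of the 6, all plasma-positive libraries lay above all plasma-negative ones, as they did for 5.68% of all tested genes. The fit called 2 of them by edgeR's quasi-likelihood test with Benjamini-Hochberg adjustment. Rac2, the Rac of blood cells, rose from 147, 171, 168 and 177 CPM in plasma-negative to 258, 235, 231 and 228 CPM in plasma-positive replicates 1 to 4 (log2 fold change 0.53, SE 0.11, edgeR adjusted p = 0.043). Cdc42, the substrate of Dock8 and the subfamily D members, rose from 978 ± 99.8 to 1258 ± 12.4 CPM (SD, n = 4 each, log2 fold change 0.36, SE 0.08, edgeR adjusted p = 0.0446). The groups did not overlap for either gene. Both calls were lost when any 1 library other than plasma-negative replicate 4 was left out, with edgeR adjusted p up to 0.128 for Rac2 and 0.119 for Cdc42. Rac1, the widely expressed Rac, had 591 ± 56.4 and 720 ± 68.4 CPM (SD, n = 4 each, edgeR adjusted p = 0.203) and Rhog, which recruits ELMO to membranes, had 311 ± 25.2 and 366 ± 24.4 CPM (SD, n = 4 each, edgeR adjusted p = 0.315). With the length and GC correction no gene of this list was called, while Rac2 and Cdc42 kept positive log2 fold changes of 0.32 and 0.25 (edgeR adjusted p = 0.294 and 0.136) and Rhog turned to -0.046. The list's median was then 0.16, beside -0.06 over all genes tested.

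The partners of DOCK proteins showed no called gene among 10 tested by edgeR (3 at an unadjusted p under 0.05) or by DESeq2, with a median log2 fold change of 0.03 (0.20 corrected). Elmo1, the adaptor that holds Dock1 and Dock2 in an active form, had 598 ± 19.0 CPM without and 541 ± 98.6 CPM with plasma (SD, n = 4 each, log2 fold change -0.14, edgeR adjusted p = 0.672). Corrected for length and GC it was 0.17, in the other direction, and without single libraries it ran from -0.26 (without plasma-positive replicate 3) to -0.042 (without plasma-positive replicate 2). Elmo2 had 47.4 ± 17.2 and 73.9 ± 14.0 CPM, with every plasma-positive library above the plasma-negative ones (SD, n = 4 each, edgeR adjusted p = 0.315). The adaptors Crk and Crkl, which bring Dock1 to adhesion sites, had log2 fold changes of 0.45 and 0.62 and overlapping groups, and the value of Crkl was 0.41 without plasma-positive replicate 3. Wipf1, which joins Dock8 to the actin regulator Was, had 41.3 ± 2.69 and 42.8 ± 5.82 CPM, and Was had 51.3 ± 8.05 and 43.0 ± 8.89 CPM (SD, n = 4 each). The log2 fold change of Was was -0.25, and -0.48 when corrected, and ran from -0.40 to -0.17 without single libraries. That of Wipf1 was 0.05 and turned to -0.065 with library totals only. None of these was called.

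Exchange factors of the Dbl kind, which act on the same GTPases through a different domain, had no gene called by edgeR. Of 25 tested Dbl factors for Rac and Cdc42, 14 had lower and 11 higher means, with a median of -0.11 (-0.05 corrected), and 3 had an unadjusted p under 0.05 while DESeq2 called 1 lower. Vav1, the main one of blood cells, had 367 ± 41.9 and 389 ± 51.5 CPM (SD, n = 4 each, log2 fold change 0.08), and it was negative when corrected for length and GC (-0.098) and with library totals only (-0.034). Without single libraries it ran from 0.015 to 0.17. The 10 tested Dbl factors for RhoA had a median of -0.49 (-0.22 corrected), with 8 lower means, 4 at an unadjusted p under 0.05 and 1 called in each direction by DESeq2. Among 22 tested GTPase-activating proteins, which switch Rac and Cdc42 off, 1 was called lower and the median was -0.23 (-0.085 corrected), with 4 at an unadjusted p under 0.05 and 4 called lower by DESeq2. That gene was Arhgap30, which had 63.0, 99.6, 106 and 74.7 CPM in plasma-negative and 34.7, 42.6, 42.6 and 32.5 CPM in plasma-positive replicates 1 to 4. It fell by 1.17 on the log2 scale (SE 0.22, edgeR adjusted p = 0.0246), with no overlap between the groups. The call was lost without plasma-negative replicate 2 or 3 or any 1 plasma-positive library (edgeR adjusted p up to 0.0835), and with the length and GC correction (-1.05, edgeR adjusted p = 0.0563). The 2 tested GDP-dissociation inhibitors, which keep Rac and Cdc42 in the cytosol, had a median of 0.39 (0.18 corrected), both at an unadjusted p under 0.05, and DESeq2 called 1 higher. Arhgdib, the one of blood cells, went from 291 ± 36.7 to 414 ± 37.5 CPM (SD, n = 4 each) and missed the threshold (log2 fold change 0.51, edgeR adjusted p = 0.0556, and 0.24 with an edgeR adjusted p of 0.513 when corrected).

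Downstream, edgeR called none of 30 tested Rac and Cdc42 effectors, with 16 higher and 14 lower means and a median of 0.05 (0.03 corrected). At an unadjusted p under 0.05 there were 8, and DESeq2 called 4 higher and 2 lower. With the length and GC correction edgeR called 1, Cyfip1, a subunit of the WAVE complex named after its values were seen, at a log2 fold change of 0.47 (edgeR adjusted p = 0.0225), which was 0.17 without it (edgeR adjusted p = 0.319). Nckap1l, the blood cell subunit of the Rac-driven WAVE complex, had 359 ± 46.6 and 368 ± 22.1 CPM (SD, n = 4 each), and the direction of this small difference turned with library totals only and without plasma-negative replicate 3. Of the Arp2/3 complex, which branches actin, 8 of 9 genes had higher means, with a median of 0.28 (0.096 corrected), and 1 was called, with 3 at an unadjusted p under 0.05 and 2 called higher by DESeq2. Arpc4 rose from 608 ± 19.7 to 791 ± 49.4 CPM (SD, n = 4 each, log2 fold change 0.38, SE 0.08, edgeR adjusted p = 0.0322), and the call was lost when any 1 library other than plasma-negative replicate 4 was left out. With the length and GC correction its log2 fold change was 0.15 and it was not called (edgeR adjusted p = 0.495). The 5 genes of the phagocyte NADPH oxidase, which Rac2 activates, had a median of 0.12, which turned to -0.066 when corrected, and no call by edgeR or DESeq2, with 1 at an unadjusted p under 0.05. Of 15 tested receptors upstream, 8 had higher and 7 lower means, with a median of 0.04 (0.08 corrected). The edgeR fit called 2 higher, with 7 at an unadjusted p under 0.05, and DESeq2 called 4 higher. Csf1r, the receptor that keeps microglia alive, rose from 10770 ± 471 to 13113 ± 332 CPM (SD, n = 4 each, log2 fold change 0.28, SE 0.04, edgeR adjusted p = 0.0049), and this call held without each library in turn and with the length and GC correction. Tyrobp, the adaptor of Trem2, rose from 929 ± 77.9 to 1321 ± 124 CPM (SD, n = 4 each, log2 fold change 0.51, SE 0.09, edgeR adjusted p = 0.0163). That call was lost, at an edgeR adjusted p of up to 0.052, without plasma-negative replicate 1 or 2 or plasma-positive replicate 4. With the length and GC correction its log2 fold change was 0.14 and it was not called. Axl and Cx3cr1 of the same list are named after their values were seen. Axl, a relative of Mertk, had 1.28, 11.96, 10.6 and 7.40 CPM in plasma-negative and 68.4, 46.9, 24.97 and 44.1 CPM in plasma-positive replicates 1 to 4. The groups did not overlap, the log2 fold change was 2.56 (SE 0.58), and it missed the threshold (edgeR adjusted p = 0.0532, and 0.0956 with the length and GC correction). Cx3cr1, the fractalkine receptor, had a log2 fold change of -0.11 (edgeR adjusted p = 0.232), which was -0.20 and passed the threshold with the correction (edgeR adjusted p = 0.0419). Mertk, a receptor for dying cells, had 653 ± 20.0 and 563 ± 60.9 CPM, with every plasma-positive library below the plasma-negative ones (SD, n = 4 each, edgeR adjusted p = 0.317). The nearest were plasma-positive replicate 3 at 632.7 CPM and plasma-negative replicate 3 at 633.7 CPM. In RPKM the groups overlapped, with 117.3 in plasma-positive replicate 3 and at most 114.6 in the plasma-negative libraries.

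**Figure D5:**
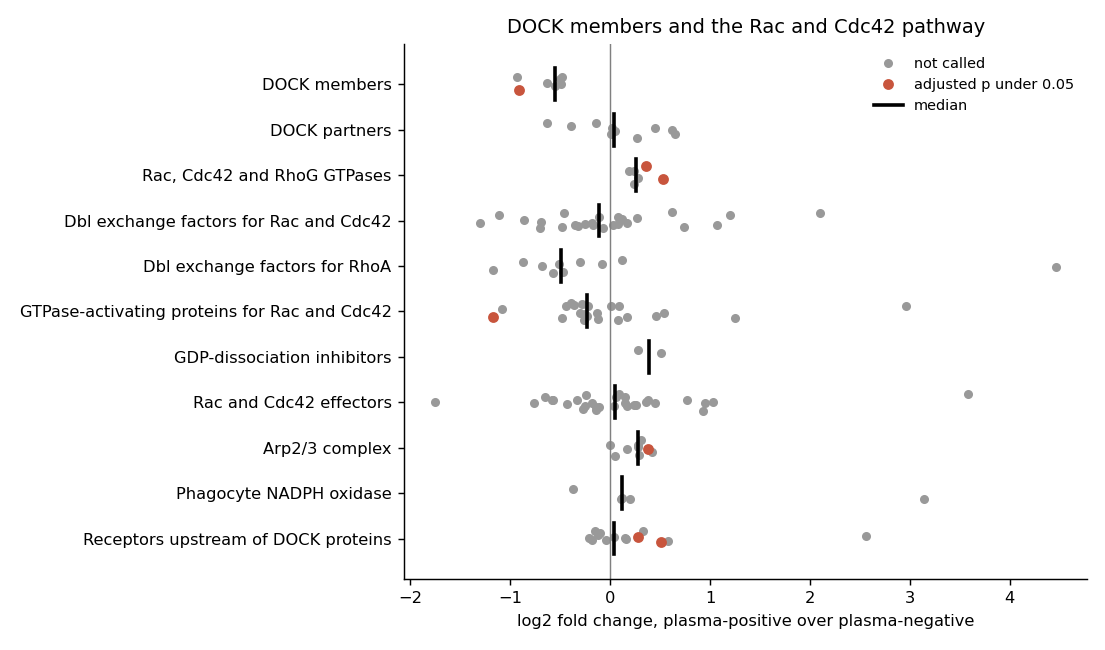
Log2 fold change, plasma-positive over plasma-negative (horizontal axis), of the tested genes in the DOCK list and in 10 lists of the pathway, 1 point per gene, with list medians as black bars and genes at an adjusted p under 0.05 in red. The DOCK members centre at -0.55, while the Rac, Cdc42 and RhoG list centres at 0.26 with 2 red genes.

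The genes whose levels most resembled the 2 most abundant members were ranked by Pearson's r of log2 CPM over the 8 libraries, which includes the difference between the groups and the shared library depth. Closest to Dock8 were Pwwp3a (r = 0.97), Snapc2 (r = 0.97) and AC141477.1 (r = 0.96). Closest to Dock2 were Nfic, Rasa2 and Trim56 (r = 0.97 each). These values are a description, and 34 and 42 tested genes exceeded an r of 0.9 with Dock8 and Dock2.

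Markers of other cells were summed in each library. Each pair of ranges gives the plasma-negative libraries first and the plasma-positive ones second. The sums were 0.881 to 3.61 and 1.76 to 16.5 CPM for border macrophages, with Cd163, Lyve1, F13a1 and Cd209f at or under 3 counts. Lymphocyte markers summed to at most 0.0886 and 5.13 CPM, with 9 of 12 at or under 3 counts. Monocyte and neutrophil markers summed to 0.291 to 14.9 and 0 to 558 CPM, the 558 CPM standing in plasma-positive replicate 3. The sums for oligodendrocytes were 158 to 230 and 222 to 542 CPM, with Sox10 at or under 3 counts, and for their precursors 0 to 1.38 and 1.23 to 17.6 CPM. Astrocyte markers gave 216 to 327 and 214 to 302 CPM, and endothelial markers 27.5 to 53.6 and 21.1 to 64.9 CPM. Pericyte markers gave 0 to 4.12 and 0 to 6.45 CPM, and neuronal markers 2.69 to 34.4 and 4.42 to 307 CPM. No marker of monocytes and neutrophils, lymphocytes, oligodendrocyte precursors or pericytes passed the expression filter of the edgeR fit. Of the 19 markers tested for the other cell types edgeR called none, with 4 higher and 1 lower at an unadjusted p under 0.05. DESeq2, run without that filter, called 4 markers higher, 1 each of oligodendrocytes, their precursors, astrocytes and neurons. The oligodendrocyte sums were above the plasma-negative range in 3 of the 4 plasma-positive libraries, and the part of RNA from other cells in the DOCK values was not tested.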

How the data were processed

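RNA of sorted microglia was extracted with RNeasy Plus Micro and made into libraries by Smart-seq2, a full-length protocol without molecular identifiers, per the labels' protocols. Read counts per gene are whole numbers as the authors deposited them, and their column names say that only top alignment hits were kept. A second deposited table, per its headers, gives RPKM, which divides the reads by exon length and by a library total. Relative to the summed counts, that total was higher in every plasma-negative than in every plasma-positive library. It was 30903259 beside 21422738 counts in plasma-negative replicate 1, and 11362455 beside 9566295 counts in plasma-positive replicate 1. The reason was not tested. Names listed in the submitters' processing notes are bcl2fastq, Trim Galore, STAR, HTSeq and the build mm10. Versions, strand use and the treatment of reads shared by genes are not given in the sources used here. A further 16 columns, of standard deviations, were not used. The 13 mitochondrial genes had 0 counts.

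The members and lists were chosen with earlier results of these data known. Counts were fitted with edgeR 4.0.16 in R 4.3.3 (TMM factors, filterByExpr with its default settings, the quasi-likelihood F test of group, Benjamini-Hochberg adjustment over 13277 genes, threshold 0.05). Dock3 and Dock5 did not pass that filter. The SE was taken as the absolute log2 fold change over the root of the F statistic. Over all tested genes 112 were called higher and 75 lower, and 1831 had an unadjusted p under 0.05. Exon lengths came from GENCODE M21 (GRCm38), which held 35546 of the 35583 identifiers. The length and GC correction subtracted a loess trend (span 0.3), fitted in each library on genes at 32 CPM or more. Level order used log2(RPKM + 0.01). Marker and list genes are called detected above 3 counts. Alternatives used limma 3.58.1, DESeq2 1.42.0, other scalings and filters, thinning to 2963094 counts, a replicate block and each library left out.

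Named genes were the family members, up to 4 called genes with the smallest p per list, and Elmo1, Elmo2, Crk, Crkl, Rac1, Rac2, Cdc42, Rhog, Vav1, Nckap1l, Was, Wipf1, Arhgdib and Mertk whatever their values, with the 3 nearest patterns for the 2 most abundant members. Some results of the lists are not reported here.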

Additional observations from a re-analysis of the deposited data

Results flagged for a closer look

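Within each group of 4 libraries, 57 sets of values were screened for a library standing far from the other three by Dixon's ratio at its 95% critical value, which chance exceeds in about 5% of sets. There were 8 such values. Dock3 was at 2.39 CPM in plasma-negative replicate 2 (38 counts), with the next library at 0.0582 CPM, and at 11.6 CPM in plasma-positive replicate 2, with the next at 0.880 CPM. Dock5 was at 0.254 CPM in plasma-positive replicate 2, which is 5 counts, and at 0 in the other three. Dock6 was at 10.5 CPM in plasma-negative replicate 1, with the next at 1.22 CPM. Among the pathway genes, Csf1r was at 11473 CPM in plasma-negative replicate 4, with the next at 10577 CPM, and Arhgdib at 236 CPM in the same library, with the next at 304 CPM. That library has the fewest counts. Tyrobp was at 1505 CPM in plasma-positive replicate 4, with the next at 1281 CPM, and Elmo2 at 94.7 CPM in that library, with the next at 69.4 CPM. No value of Dock1, Dock2, Dock4, Dock8, Dock9, Dock10 or Dock11 stood apart in this way.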

How the results depend on the processing

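Against 187 genes called in all, DESeq2 gave 965, limma on log2(RPKM + 1) 447 and on log2(RPKM + 0.1) 432, the length and GC correction 67, and counts thinned to the smallest library 113. Leaving out 1 library gave 66 to 203, fewest without plasma-negative replicate 3. Genes called higher were 59.9% of calls, 28.2% with library totals only (median shift -0.11), 49.8% with DESeq2, 86.8% and 85.6% on the RPKM scales (median shifts 0.11 and 0.16). The number of DOCK members called lower, 1 of 7, was 2 with library totals only, with a mean count of at least 50 and with limma-voom, 4 with DESeq2, 0 on log2(RPKM + 1) and 0 with the length and GC correction (2 members at an unadjusted p under 0.05 in each), and 1 without each library in turn. Pathway genes called higher, 5, were 3 with relative log expression factors, 2 with library totals only, 3 without a filter, 14 with DESeq2, 12 and 11 on the RPKM scales, 2 with the length and GC correction and 1 to 6 without 1 library. Pathway genes called lower, 1, were 5 with library totals only, 2 with a mean count of at least 50, 9 with DESeq2, 4 with limma-voom, 0 on both RPKM scales (4 at an unadjusted p under 0.05) and 0 with thinned counts (12 unadjusted), and 0 to 1 without 1 library (13 to 17 unadjusted where 0).

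Samples with the same replicate number did not deviate together (correlations of 0.0109 to 0.0315), and only replicate 4 correlated best with its own number, so the numbers are not treated as pairs. With the replicate block 74 genes were called, 70.3% of them higher, with 2 pathway genes higher and 0 lower (18 at an unadjusted p under 0.05). With the block and the length and GC correction together 11 were called, no DOCK member (2 unadjusted) and 0 pathway genes higher (18 unadjusted) or lower (10 unadjusted).

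The 7 members' fold changes were negative in all 22 fits, which reuse the libraries on which the members were picked. Dock6 reversed to 0.52 with limma-voom, 1.17 with the replicate block, 1.29 with block and correction, and without single libraries it ran from -2.13 to 1.38, the latter without plasma-negative replicate 1. With the length and GC correction, without and with the block, Elmo1 became 0.17 and 0.15, Rhog -0.046 and -0.044, and Vav1 -0.098 and -0.097. With library totals only Vav1 became -0.034, Nckap1l -0.076 and Wipf1 -0.065. With thinned counts Nckap1l became -0.025 and Wipf1 -0.087. Without single libraries Nckap1l ran from -0.045 to 0.093, being negative without plasma-negative replicate 3 or plasma-positive replicate 2 (-0.0030), and Wipf1 from -0.0014 to 0.14, being negative without plasma-positive replicate 3. The causes were not tested. In the level order, 7 of 9 ranks were the same in plasma-negative libraries alone, where Dock4 and Dock10 swapped places. Dock3, Dock5 and Dock6 were near 0 in most libraries, and whether depth limits them was not tested.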
